A study of Homo sapiens with 2 samples.

Results

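Among the gene IDs that carried MSI2 peaks, 396 had exactly 1 peak in each of 2 CLIP-seq libraries with these lone peaks overlapping by at least 1 nt. Musashi-2, or MSI2, binds RNA: it attaches to short motifs in messenger RNA and alters how that RNA is translated and how long it lasts. It is known for keeping blood stem cells immature and is active in several leukaemias. CLIP-seq freezes a protein onto the RNA it touches with ultraviolet light, recovers the protein with an antibody and sequences the attached RNA fragments. Both libraries were made from NB4, an established line of acute promyelocytic leukaemia cells, with an anti-MSI2 antibody and 400 mJ per square centimetre of ultraviolet light. They form 1 group, with no treatment, no added allele and no control antibody, input or MSI2-depleted library analysed here, so a repeatable background cannot be told apart from MSI2 binding. Nothing says that they came from separate cultures.

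The members were chosen by the positions and numbers of the peaks themselves: an ID had to have 1 peak in replicate 1 and 1 in replicate 2, and on one strand the peaks had to share at least 1 nt. They were 396 of the 757 IDs with a single peak in each library (52.3%, 95% Wilson interval 48.8% to 55.8%), of 5552 IDs with peaks in both and of 8801 with a peak in either. The other 361 IDs with a single peak in each library had peaks that did not overlap, and they serve for comparison. All 757 pairs lay on the same chromosome and strand. Over all peaks, 35.7% of replicate 1 and 37.3% of replicate 2 had an overlapping partner in the other list. The overlap is what the rule used, so nothing is read from these shares. Intervals here cover counting error only. No gene names go with the IDs, so sites are given by hg19 position, counted from 1, and neither gene roles nor the markers of the cell line could be looked up.

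Carrying a single peak was common, but carrying one in both libraries was less so. Replicate 1 listed 25920 peaks under 7252 IDs, and 2448 of the IDs had 1 peak. Of these, 1102 (45.0%) had no peak in replicate 2, 757 (30.9%) had 1, 310 had 2 and 279 had 3 or more. Replicate 2 listed 25243 peaks under 7101 IDs, and its 2433 IDs with 1 peak met 954 (39.2%), 757 (31.1%), 350 and 372. A lone peak of replicate 1 was overlapped under its own ID in 45.8% of cases (40.3% to 51.4%) where replicate 2 had 2 peaks and in 48.7% (42.9% to 54.6%) where it had 3 or more. The shares for lone peaks of replicate 2 were 48.9% (43.7% to 54.1%) and 54.6% (49.5% to 59.6%). The share did not climb steadily with the number of peaks available for overlap, and all 4 intervals meet that of the 757 pairs.

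Each peak name ends in a whole number of 3 or more, here called the tally, which no label explains. Higher tallies went with lower deposited p-values, with a Spearman rho over members of -0.82 in replicate 1 and -0.84 in replicate 2. The members carried far higher tallies than the pairs that lay apart. Their median was 6 in both libraries, with quartiles of 4 and 9 and a highest value of 66 in replicate 1, and quartiles of 4 and 10 and a highest value of 64 in replicate 2. The pairs that lay apart had a median of 3, quartiles of 3 and 4, and highest values of 12 and 19. A tally of 10 or more was reached by 97 members (24.5%, 20.5% to 28.96%) in replicate 1, where 13.2% of all peaks reached it, and by 112 (28.3%, 24.1% to 32.9%) in replicate 2, where 9.53% did. Only 4 and 3 of the 361 pairs that lay apart reached it. The lowest tally, 3, was held by 67 members in replicate 1 and 69 in replicate 2, and by 223 and 233 of the pairs that lay apart. High tallies were not particular to lone sites. Peaks with an overlapping partner under IDs with 2 or more peaks had a median tally of 7 (replicate 1) or 6 (replicate 2), and 32.9% and 23.1% of them reached 10. The members and the pairs that lay apart overlap in tally, since 29 members had a tally of 3 in both libraries.

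**Figure D1:**
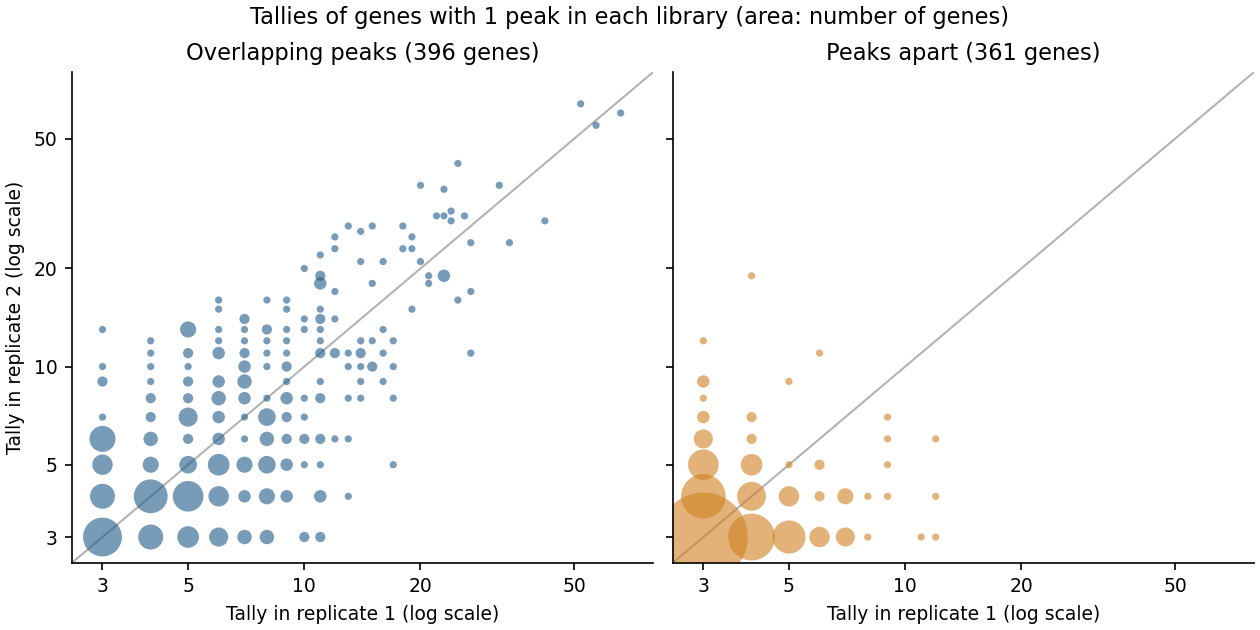
Tally in replicate 1 (horizontal, log scale) against tally in replicate 2 (vertical, log scale) for the 396 genes whose lone peaks overlap (left) and the 361 whose lone peaks lie apart (right), with circle area showing the number of genes and a line at equal tallies. The members run along the line up to 66 and 64, while the pairs that lie apart crowd at 3 in at least 1 library.

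Tallies of the members tracked each other between libraries. Across the 396 members Spearman's rho between libraries was 0.62, and Pearson's r of log2 tallies was 0.71. Across the 361 pairs that lay apart both were 0.09. Those pairs had little range in tally, with a median of 3 and 0 pairs at 10 or more in both libraries. The coefficients of the sets are therefore not on an equal footing. They are descriptions over genes, which share their library and are not independent samples. Of the members, 62 shared a site with another member. The tally was higher in replicate 2 in 161 members, lower in 170 and equal in 65, with a median log2 ratio of 0.00 and quartiles of -0.42 and 0.49. It stayed within 2-fold in 351 members (88.6%), and in 340 of the pairs that lay apart (94.2%), where 152 had a tally of 3 in both libraries. The members held 2.08% of the summed tally of replicate 1 (3239 of 155598) and 2.53% of that of replicate 2 (3380 of 133644). They were 1.53% and 1.57% of the peaks.

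Recurrence among lone peaks rose with tally. Of the IDs whose replicate 1 peak had a tally of 3, 23.1% (18.6% to 28.3%) were members. The share was 41.5% at a tally of 4, 63.5% at 5, 80.4% (73.5% to 85.8%) at 6 to 9 and 96.04% (90.3% to 98.4%) at 10 or more. Binned by replicate 2, the same shares were 22.8%, 51.02%, 59.2%, 81.2% and 97.4%. The rule fixes which pairs count, so these shares describe the list and test nothing.

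**Figure D2:**
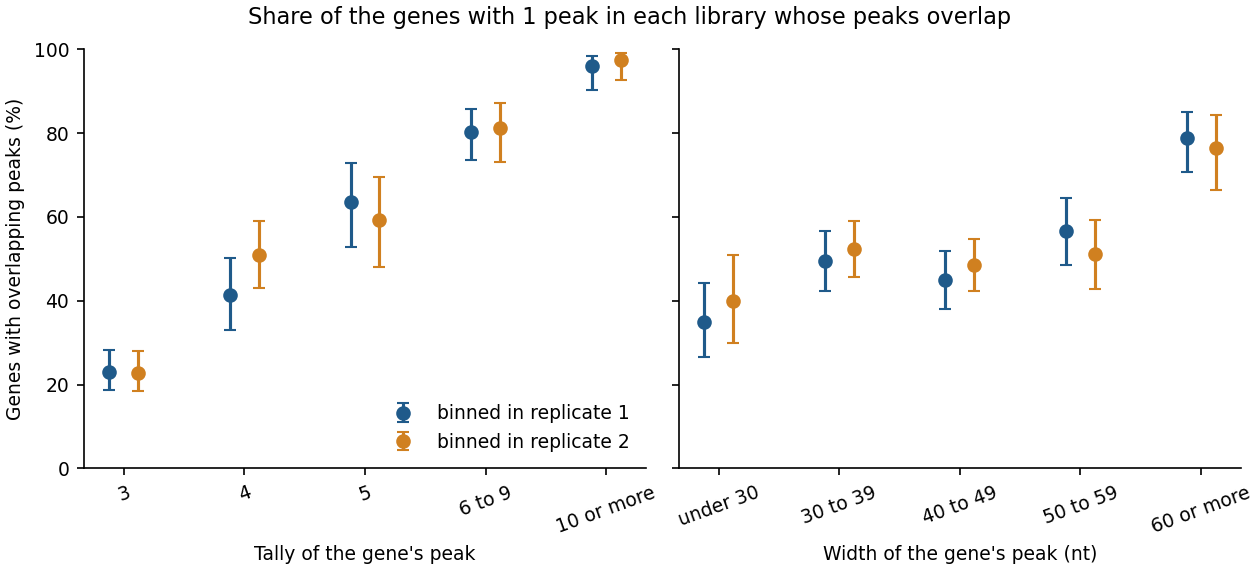
Percentage of the 757 genes with 1 peak in each library whose peaks overlap (vertical), by the tally (left) and the width in nt (right) of the peak in replicate 1 or replicate 2, with 95% Wilson intervals as bars. The share climbs from 23.1% at a tally of 3 to 96.04% at 10 or more in replicate 1, and lies between 34.9% and 56.6% in widths under 60 nt. At 60 nt or more it is 78.9% in replicate 1 and 76.5% in replicate 2.

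Member peaks were slightly wider over the whole list, but within equal tallies they were narrower or within 1 nt. A wide peak is more easily overlapped, by construction. Median widths were 45 nt (quartiles 37 and 59) in replicate 1 and 44 nt (36 and 53) in replicate 2, against 41 nt (32 and 49) and 42 nt (34 and 49) for the pairs that lay apart. At a tally of 3 in replicate 1 the medians were 37 nt in members and 36 nt in the rest. At 4 they were 45 and 48 nt, at 5 they were 51.5 and 53 nt, and at 6 to 9 they were 54 and 60 nt. Replicate 2 gave 38 and 39 nt at 3, 44 and 46 nt at 4, 45 and 48 nt at 5, and 51 and 59 nt at 6 to 9. In the other direction, members kept the higher tally within every width class of both libraries. Among peaks of 30 to 39 nt, for example, the median tally was 5 in members and 3 in the rest, and among those of 60 nt or more it was 9 against 6.5 in replicate 1 and 9 against 6 in replicate 2.

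Member peaks coincided closely, but the rule required them to overlap. That bounds the overlaps and end shifts given here and the distances between inner intervals given next, so these values describe the members and test nothing. The median overlap was 37 nt (quartiles 30 and 47), which covered a median of 98.1% of the shorter peak and 77.8% of the wider one. In 193 members (48.7%) one peak lay wholly inside the other, and in 5 both ends were the same. The 5' end shifted by a median of 6 nt between libraries and the 3' end by 5 nt. The 5' end moved more in 192 members, the 3' end in 165, and both by the same amount in 39. Replicate 1 had the wider peak in 222 members and replicate 2 in 150. Members were spread evenly over the strands, with 199 on plus and 197 on minus.

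Columns 7 and 8 of the lists mark a short inner interval in each peak, 4 nt long in all members in replicate 1 and in 99.2% in replicate 2. Over all peaks it was 94.3% and 90.4%. In members the centre of the interval lay a median of 5 nt away (quartiles 2 and 9) from that of the partner peak, within 10 nt in 312 members (78.8%) and at more than 20 nt in 37. Overlapped peaks of replicate 1 under IDs with 2 or more peaks had a median of 7 nt, with 66.7% of 8557 within 10 nt. The measures differ, since for those peaks the nearest overlapping replicate 2 peak of any ID was taken. They were also wider, with a median of 52 nt against 45 nt in members, which leaves more room between centres. The inner intervals closed up as the lower tally of the pair rose. At a lower tally of 3 the median was 6 nt, with 69.2% of 107 members within 10 nt. At 6 to 9 it was 4 nt and 82.6% of 86, and at 10 or more it was 3 nt and 94.3% of 70. Seen from the 5' end, the inner centre of member peaks sat just past the middle, at a median of 0.52 of the width in replicate 1 and 0.53 in replicate 2, against 0.50 in both libraries for the pairs that lay apart.

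**Figure D3:**
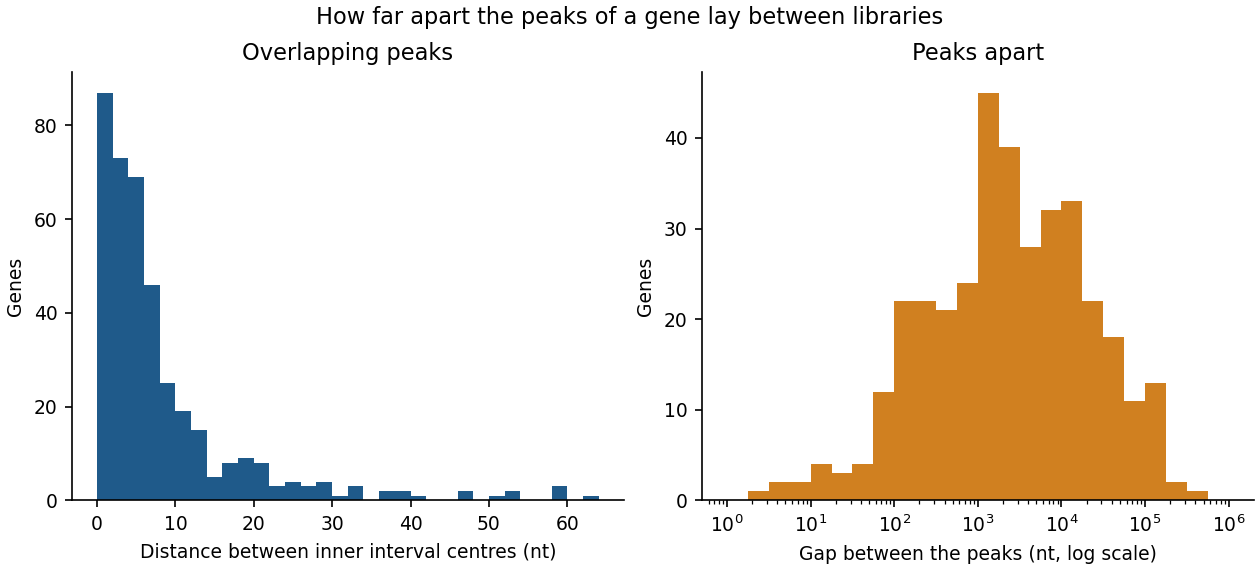
Left, number of member genes (vertical) by the distance in nt between the inner interval centres of the partner peaks (horizontal). Right, number of genes whose lone peaks lie apart by the gap in nt between the peaks (horizontal, log scale). Members pile up near 0 with a median of 5 nt, and the gaps centre on 2434 nt.

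The pairs that lay apart were mostly far apart. Their gap had a median of 2434 nt, quartiles of 535 and 12701 nt, and a highest value of 420317 nt. It was under 100 nt in 28 IDs, from there up to 1 kb in 89 and 1 kb or more in 244 (67.6%). The replicate 2 peak lay further toward the 3' end in 172 and toward the 5' end in 189. At the edge of the rule, the shortest overlaps were 1, 1, 2, 3 and 4 nt and the shortest gaps were 2, 5, 5, 7 and 8 nt. Just inside, a plus-strand pair on chromosome 15 met at 65158814, where the replicate 1 peak ended and the replicate 2 peak began, with tallies of 3 and 6. It is listed under 2 IDs, which give both overlaps of 1 nt. Just outside, a minus-strand pair on chromosome 6 lay at chr6:52866341-52866402 in replicate 1 and at chr6:52866288-52866338 in replicate 2, with tallies of 5 and 4. The bounds of the genes themselves were not analysed. A short gene leaves no room for peaks far apart, and how many members lie in such genes was not tested.

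Among IDs with 1 peak in each library, strong peaks seldom lay apart. Of such peaks with a tally of 10 or more, 4 of 101 did in replicate 1 and 3 of 115 in replicate 2. Under IDs with 2 or more peaks, 425 of 3242 peaks that strong in replicate 1 had no overlapping partner. In replicate 2 it was 244 of 2228. Among the pairs that lay apart, the highest single tally was 19, in replicate 2 on chromosome 6. Its partner had 4, and the gap was 394 nt. The pair with the highest lower tally was on chromosome 7, at 139050404 and 139107208. Its tallies were 9 and 7, with a gap of 56785 nt. On chromosome 4, chr4:166263816-166263907 and chr4:166264163-166264218 had tallies of 12 and 6 and a gap of 255 nt. On chromosome 2, minus-strand peaks with their lower bounds at 76672480 and 76672302 had 6 and 11 and a gap of 123 nt.

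The strongest members, ordered by the lower of their tallies, are described next. All 396 members together held 2.08% and 2.53% of the summed tallies of the libraries. The top 25 had lower tallies from 18 to 60 and held 21.7% of the members' summed tally in replicate 1 and 22.5% in replicate 2. The 25 are IDs at 21 distinct sites. With each site counted once, those sites held 20.5% and 21.9% of the tally of the 364 member sites. The distance between their inner intervals had a median of 3 nt and reached 23 nt. The first was chr6:52860653-52860747 on the plus strand, under ENSG00000202198.1, where the peak had the same start and end in both libraries, the inner intervals coincided and the tallies were 66 and 60. Next in this order, after a site on chromosome Y, came chr16:18803362-18803403 on the minus strand, under ENSG00000260342.2, with tallies of 52 and 64. Its replicate 2 peak had the same 5' end and reached 16 nt further at the 3' end, to 18803346. The site was also listed under another ID.

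Others of the 25 were higher in replicate 1, with tallies of 42 and 28 at chrM:15962-15987 and 34 and 24 at chrM:10016-10041. The strong members printed next had similar tallies in both libraries or higher ones in replicate 2. At chr10:99192359-99192428, plus strand, the replicate 2 peak ran from 99192358 to 99192426 and the tallies were 32 and 36. The tallies were 26 and 29 at chrX:68892354-68892419, plus strand, where both peaks were 66 nt wide and 4 nt out of step. At chr7:128337546-128337585, plus strand, they were 25 and 42. At chr6:26104391-26104490, plus strand, they were 22 and 29, and the peak was among the widest of the members, at 100 and 96 nt. At chr3:181540707-181540741, minus strand, they were 23 and 35 with coinciding inner intervals. At chr12:54678592, where the replicate 1 peak began, they were 27 and 24 with inner intervals 23 nt apart, the farthest of the 25, and at chr10:103124645 they were 20 and 21. Of the 25, replicate 2 had the higher tally in 15 and replicate 1 in 10, or in 13 and 8 of the 21 sites.

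Some members differed between libraries more than the rest. Of the 91 members whose tallies summed to 20 or more, 53 were higher in replicate 2 and 36 lower, with a median log2 ratio of 0.26. The tallies were not scaled to the summed tallies of the libraries, 155598 and 133644, and IDs at one site were counted separately. The largest ratio belonged to chr14:20883200-20883221, plus strand, with tallies of 6 and 16 and a log2 ratio of 1.42. Next came chr8:139815631-139815679, minus strand, with 6 and 15. At chr8:28387977-28388015, plus strand, the tallies were 12 and 25, and at chr18:21750493-21750534, minus strand, they were 13 and 27. In the other direction, chr19:36829979-36830057, minus strand, had 17 and 5, a log2 ratio of -1.77, and its peak narrowed from 79 to 57 nt. At chr3:40353609-40353702, plus strand, the tallies were 27 and 11 and the widths 94 and 67 nt. With 1 value per library, none of these differences has an error of its own.

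The widest members showed that an overlap need not be a close match. Ranked by the narrower of their peaks, the widest pair, chr20:62704695-62704818 on the minus strand, measured 124 and 122 nt and had nearly the same bounds, with tallies of 14 and 11, yet its inner intervals lay 37 nt apart. At chr1:39330194-39330291, minus strand, widths of 98 and 96 nt shared 31 nt, with tallies of 6 and 9. At chr2:85133661-85133756, plus strand, widths of 96 and 92 nt shared 84 nt, with tallies of 14 and 12. At chr6:26104391-26104490 widths of 100 and 96 nt shared 85 nt, with inner intervals 3 nt apart. At chr6:52860653-52860747 both peaks had the same bounds and the inner intervals coincided.

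Many member sites were listed under another gene ID as well. In replicate 1, 115 members (29.04%) had a peak overlapped on its strand by a peak of another ID in the same library, against 7.74% of all peaks. In replicate 2 it was 116 (29.3%), against 8.56%. For the pairs that lay apart it was 45 (12.5%) and 46 (12.7%). Both libraries showed it in 112 members (28.3%, 24.1% to 32.9%) and in 40 of the pairs that lay apart (11.1%, 8.24% to 14.7%). Among the 70 members with a tally of 10 or more in both libraries it was 30 (42.9%, 31.9% to 54.5%), and among the other 326 it was 82 (25.2%, 20.8% to 30.1%). These shares count IDs, so a site listed under several member IDs enters more than once, and the intervals treat its IDs as separate. The 396 members came down to 364 distinct sites: 334 under 1 member ID, 28 under 2 and 2 under 3 or more. In 57 members the overlapping replicate 1 peak belonged to an ID that was no member. In 51 of the 57, such an ID had 2 or more peaks in replicate 1. With every such peak left out before the rule was applied, 289 of 612 pairs were members (47.2%). Of these, 277 were members before and 12 became members through the removal. Their tally still had the higher median, by 2.5.

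The same site could carry very different deposited p-values under different IDs. At chr10:327985-328061, minus strand, one ID had tallies of 24 and 30 with p-values of 2.39e-24 and 9.12e-32. Another ID, with peaks inside these bounds and tallies of 24 and 28, had 0.000129 and 7.28e-05. At chr13:46948599-46948675, minus strand, 3 IDs had tallies of 23 and 19, and the p-value in replicate 1 ran from 4.40e-22 to 1.10e-06. At chr3:150905921-150905975, plus strand, 2 IDs with tallies of 18 and 19 in replicate 1 had 0.000151 and 8.63e-19. Of the 30 sites under several member IDs, the p-values differed 10-fold or more in 12 in replicate 1 and in 17 in replicate 2. The p-values are the authors' own, and no source used here says how they were computed. A cut on p that fell between the p-values of a site would thus keep one of its IDs and drop another.

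**Figure D4:**
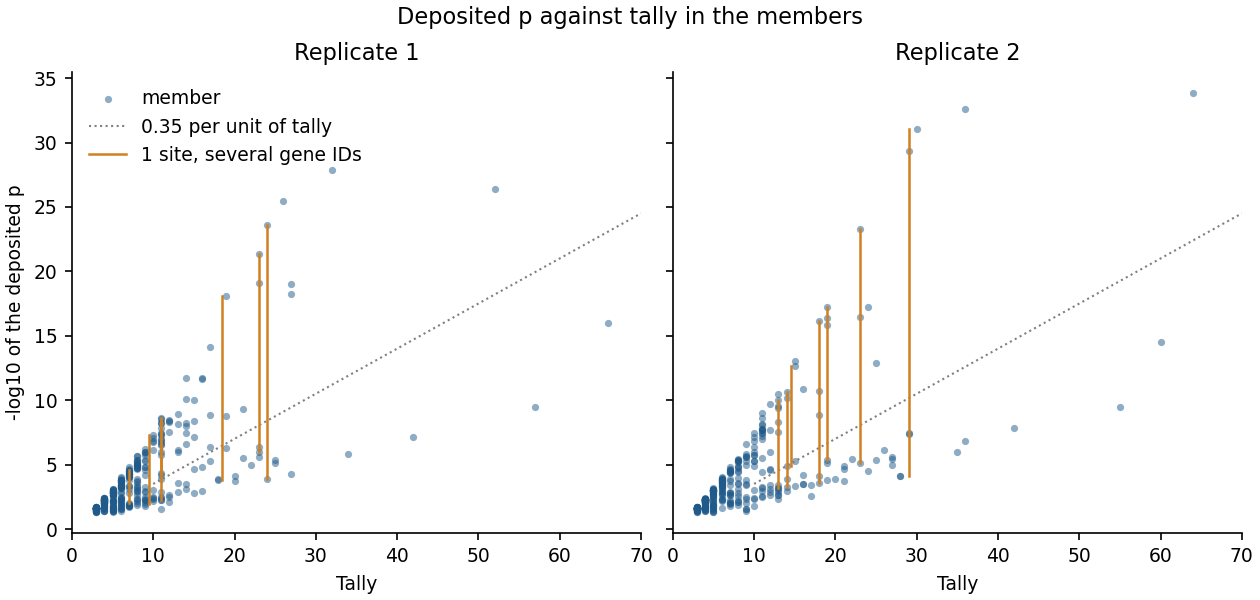
Minus log10 of the deposited p (vertical) against tally (horizontal) for the 396 members in replicate 1 (left) and replicate 2 (right). Orange lines join the lowest and highest p of the 7 sites with the widest range in replicate 1 that are listed under several member IDs, drawn at their mean tally, and the dotted line marks 0.35 per unit of tally. Of the 97 members with a tally of 10 or more in replicate 1, 41 lie under the dotted line.

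Members with high tallies more often had weak p-values than peaks of IDs with several peaks. Of the 97 members with a tally of 10 or more in replicate 1, 25 (25.8%, 18.1% to 35.3%) had a p above 0.0001. Under IDs with 2 or more peaks it was 145 of 3242 such peaks (4.47%, 3.81% to 5.24%). Replicate 2 gave 33 of 112 members (29.5%, 21.8% to 38.5%) and 119 of 2228 (5.34%, 4.48% to 6.35%). To describe this over tallies, minus log10 of p was divided by the tally, and a value of 0.35, chosen after the values were seen, was used as the boundary. Of the 70 members with a tally of 10 or more in both libraries, 33 lay under it in both, 37 in neither and 0 in 1 library alone. With boundaries of 0.25, 0.30, 0.40, 0.45 and 0.50, the number on different sides was 3, 2, 0, 1 and 3. At 0.35 itself the values of the 70 ran on without a break. Higher up, replicate 1 had no value between 0.381 and 0.445. Replicate 2 had none between 0.389 and 0.492, and also none between 0.906 and 1.01. The boundary thus divides a range, and whether the sites are of 2 kinds was not tested. The 70 members lay at 64 distinct sites, and 4 of these had an ID on each side.

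Most members with weak p for their tally were narrow. How the length of the gene enters the width or the p-value was not tested. The 33 had median widths of 40 nt in both libraries, and 27 of them measured under 50 nt in both. The 37 had medians of 66 and 64 nt, and 5 measured under 50 nt in both. The exceptions among the 33 included chr6:52860653-52860747, at 95 nt, and chr6:26104391-26104490. The 33 were higher in replicate 2 in 23 cases and lower in 10, with median tallies of 18 and 22 and a median log2 ratio of 0.40. The 37 were higher in 16, lower in 19 and equal in 2, with medians of 14 and 13 and a median ratio of -0.13. Over all members with a tally of 10 or more in replicate 1, those under the boundary made up 42.3% and had a median width of 40 nt. Under IDs with 2 or more peaks they made up 7.19% and had a median width of 60 nt.

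Examples of narrow members with weak p for their tally lay on many chromosomes. At chr4:8394790-8394826, plus strand, the tallies were 18 and 27 and the replicate 1 p was 0.000143. At chr1:228763920-228763961, minus strand, they were 20 and 36 and p was 7.46e-05. At chr16:33965450-33965484, plus strand, they were 23 and 29 and p was 4.28e-07. By contrast, at chrX:68892354-68892419 tallies of 26 and 29 went with p-values of 3.36e-26 and 4.80e-30.

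All 5 mitochondrial IDs with 1 peak in each library were members. They lay under 5 of the 24 mitochondrial IDs with any peak, and each had the higher tally in replicate 1. The tallies were 42 and 28 at chrM:15962-15987 on the minus strand. On the plus strand they were 34 and 24 at chrM:10016-10041, 27 and 17 at chrM:605-632, 11 and 9 at chrM:12172-12205, and 10 and 6 at chrM:12288-12312. The peaks measured 25 to 34 nt in replicate 1. Of the 33 members with weak p for their tally, 3 were mitochondrial, and the other 30 were higher in replicate 2 in 23 cases.

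The share of members on a chromosome had an interval that held its share of all IDs with peaks, except on chromosome 2, where it was lower, and on chromosomes Y and M, where it was higher. Chromosome 1 held the most, 43 (10.9%, 8.16% to 14.3%), where it held 9.75% of all IDs with peaks, and chromosome 3 followed with 25 (6.31%) against 5.61%. Chromosome 2 held 14 (3.54%, 2.12% to 5.85%) against 6.93%, and chromosome 19 held 18 (4.55%) against 5.99%. Chromosome 14 held 19 (4.80%) against 3.44%. Among the 757 pairs, the share that were members ran from 41.2% on chromosome 2 to 70% on chromosome X over the 19 chromosomes with 20 or more pairs. The Wilson intervals of all 19 hold the overall 52.3%. On chromosome 13 it was 10 of 14 pairs, on chromosome 21 it was 3 of 10, and on chromosome Y it was 2 of 2.

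**Figure D5:**
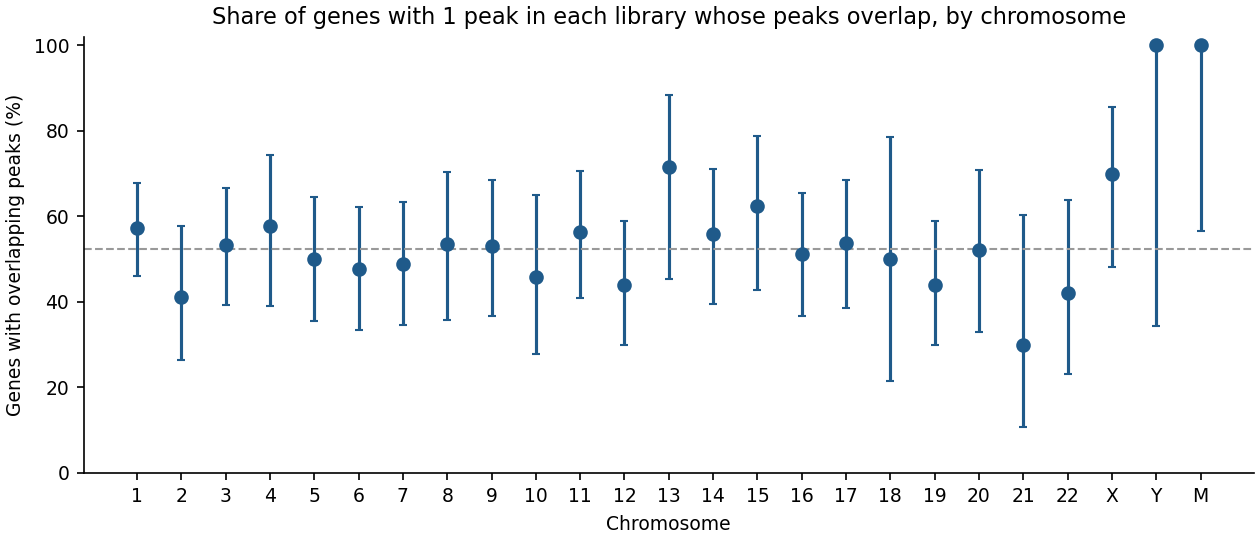
Percentage of genes with 1 peak in each library whose peaks overlap (vertical) by chromosome (horizontal), with 95% Wilson intervals as bars and a dashed line at the overall 52.3%. Shares run from 41.2% on chromosome 2 to 70% on chromosome X where 20 or more pairs exist, and all 5 mitochondrial pairs overlap.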

How the data were processed

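The peak lists of both libraries were used as deposited. The tools named per the submitters' processing notes are STAR 2.3.0e, Bowtie 1.0.0 and cutadapt, with hg19 as the build. The peak caller was not given in the sources used here. Each peak carries the authors' deposited p-value, under 0.05 throughout, and positions of the peak and of an inner interval. The tally was read from the deposited peak name. Summed tallies were 155598 and 133644, and read depth is not given. No peak was filtered. Calculations used matplotlib 3.10.9, SciPy 1.17.1, pandas 2.3.3 and NumPy 2.4.6 under Python 3.11.15, and the rule was tested on simulated data.

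The members and measures were chosen with earlier results of these data known, and the boundary of 0.35, the threshold of 0.0001 and the comparison of p with tally were added after the values were seen. Genes are not replicates and each library is 1 sample, so medians, counts and Wilson intervals are given and no p-value was computed. Named sites are the 25 members with the highest lower tally (a selection of these is printed), those with extreme tally ratios among sums of 20 or more, the 5 widest, and pairs nearest the edge of the rule. Gene lists were planned by symbol and were not used, since no symbols could be matched. No sequence of hg19 was used, so none is printed.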

Additional observations from a re-analysis of the deposited data

How the results depend on the processing

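Of 64 recomputed values, 23 were counted as moved, 41 were not, and 0 changed sign. Only the gaps in median tally and in median width could change sign. Member counts ran from 289 to 480 against 396. They were counted among the 41, as all lay within 1.5 times of 396 under every alternative. That is not a limit of counting error, so the 41 do not show that member counts held within it. The other values were compared with the replicate spread or counting interval. The share of members among IDs with 1 peak in each library was 52.3%. It was 45.2% with a reciprocal overlap of 50%, 59.4% with peaks extended by 100 nt, 61.5% with the weaker peaks by p left out (50% kept), 64.2% with the lowest tally left out, and 47.2% with peaks overlapping another ID's peak left out. The last of these was chosen after seeing the data. The gap in median tally, 3, was 2.5 with extension, with the lowest tally left out and without overlapping IDs. The gap in median width, 3 nt, was 6.25 nt with the stronger 50% and 4.5 nt without overlapping IDs. Shortened lists change which IDs have 1 peak, and otherwise the cause was not tested. Leaving out a replicate leaves no pairs: single-peak IDs then number 2433 to 2448. A median tally of 6 leaves most members resting on few fragments if tallies are reads. No paired analysis was possible because there is 1 group.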

Other observations

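Each peak name also holds a running number, counted from 0 within an ID, which no label explains. It was 0 in both libraries in 362 of the 396 members (91.4%) and in 305 of the 361 pairs that lay apart (84.5%). In the other 34 members and 56 pairs, at least 1 library had given the lone peak a later number, up to 2 in members and 3 in the pairs that lay apart.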
